A study of Oryza sativa with 12 samples.

Results

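In rice anthers, 121 genes had more transcript in the nup1 mutant than in wild type at both stages sampled. They are the genes for which mean log2(FPKM + 1) of the 3 nup1 libraries exceeded that of the 3 wild-type libraries by 1.5 or more at stage 11 and again at stage 10. FPKM counts sequenced fragments relative to transcript length and to library size. The 121 genes are taken from 1450 genes that the authors list at both stages, and from 7087 that they list at either. The genes were thus chosen by the differences between genotypes, which are given as a description and were not tested.

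Poly(A) RNA of anthers was sequenced from nup1 mutants at stage 11, wild type at stage 11, nup1 mutants at stage 10 and wild type at stage 10, each of these 4 groups holding 3 libraries that the labels call biological replicates. By its title, the series concerns male sterility in rice and a link of oxidative burst with tapetal Ubisch bodies. The labels give neither the mutated locus nor the cultivar, allele or growth conditions of either genotype, and a whole anther holds several tissues. Both deposited tables list only genes that the authors called as changed, 5084 at stage 11 and 3453 at stage 10, so an unlisted gene is not analysed here.

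The tapetum is the innermost layer of the anther wall. It feeds the developing microspores, secretes the precursors of the pollen wall through Ubisch bodies on its inner face, and is then broken down by programmed cell death. Over the same period stress hormones such as jasmonate and ethylene take part in stamen maturation, and transcripts of tapetum and microspores turn over quickly. In bulk anthers, fewer cells of a type and less RNA per cell cannot be told apart.

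The files identify genes by locus only, and the reference gene table, of assembly ASM3414082v1, holds no such locus identifiers. Of the 121 genes, 7 are given a symbol here, each entered from recall and not taken from a source. Each symbol was found in the reference gene table on the chromosome in the locus name. That is the only check that could be made. DREB1F, HOX22, PIP2-6 and PP2C49 were entered after the values were seen. All other genes are given by locus, without a role, and no sequence of any gene was used here.

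The differences were mostly moderate and were not graded alike at the 2 stages. At stage 11 the median difference was 2.09 on the log2 scale, with 52 genes between 1.5 and 2, 54 between 2 and 3, 11 between 3 and 4, and 4 at 4 or more. At stage 10 the median was 1.96, with 69, 44, 6 and 2 genes in the same ranges. Over all listed genes the median difference was -0.96 at stage 11 and 0.84 at stage 10, and over the 404 other genes listed as higher at both stages it was 1.181 and 1.202. The difference was 2 or more at both stages in 35 genes, and 3 or more at both in LOC_Os07g48550 alone. It was larger at stage 11 in 73 genes and larger at stage 10 in 48. Between stages the differences were barely related across the 121 genes (r = 0.06 by Pearson, rho = 0.13 by Spearman), over a range that the rule truncates, and genes are not independent replicates.

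**Figure D1:**
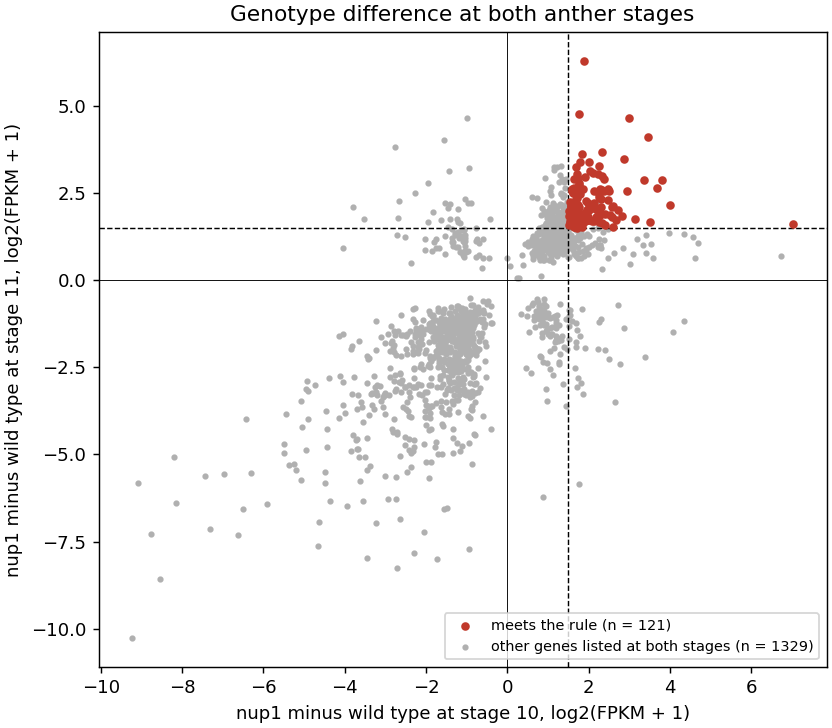
Difference between nup1 and wild type in mean log2(FPKM + 1) at stage 10 (horizontal) and stage 11 (vertical), 1 point per gene listed at both stages, with dashed lines at 1.5. The 121 genes of the rule fill the upper right corner, and LOC_Os10g05930 (6.29 at stage 11) and LOC_Os02g45530 (7.04 at stage 10) lie at its ends.

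All 121 genes are listed as higher at both stages in the authors' deposited tables, and all had a mean of 1 FPKM or more over the 6 libraries of each stage. With limma, fitted over each whole table, 106 of them passed at stage 11, where 26.3% of all fitted genes passed as higher in nup1 and 72.3% in either direction. At stage 10, 93 passed, against 39.8% as higher and 72.9% in either direction. Every nup1 library lay above every wild-type library in 116 genes at stage 11 and in 107 at stage 10, against 36.8% and 52.8% of listed genes. The rule used the same contrast, so these counts carry no support of their own.

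The genes closest to the threshold show what it divides. Just inside lay PIP2-6 (LOC_Os04g16450, an aquaporin of the plasma membrane), with differences of 1.51 at stage 11 and 1.72 at stage 10. LOC_Os02g52730 had 1.58 and 1.51, and LOC_Os05g11910 had 1.98 and 1.51. Just outside lay LOC_Os04g51820 with 2.11 and 1.499, LOC_Os05g33400 with 1.491 and 2.24, and LOC_Os08g01610 with 1.488 and 1.83.

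Levels were low to intermediate in most of the genes. The median over the 121 genes of the group mean was 24.2 FPKM in nup1 and 3.66 FPKM in wild type at stage 11, and 35.0 FPKM in nup1 and 9.59 FPKM in wild type at stage 10. A mean of 100 FPKM or more was reached by 17 genes in nup1 and 0 in wild type at stage 11, and by 32 in nup1 and 8 in wild type at stage 10. A mean under 1 FPKM was found in 0 genes in nup1 and 20 in wild type at stage 11, and in 0 and 8 at stage 10.

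Particular libraries stood apart within this set, and the spread they give is part of most results below. Wild-type replicate 3 of stage 10 was at least 2-fold above both other wild-type libraries in 53 of the 121 genes (43.8%), on the scale of FPKM + 1. The same held in 13.4% of the 404 other genes listed as higher at both stages and in 7.72% of all 1450. Nup1 replicate 1 of stage 11 was at least 2-fold above both other nup1 libraries in 26 genes (21.5%), against 13.4% and 10.8%. Wild-type replicate 2 of stage 10 was at least 2-fold below both others in 19 (15.7%), against 6.93% and 3.52%. A low wild-type library or a high nup1 library raises the difference the rule selects on, so the rule itself can raise these last 2 shares. The nup1 libraries of stage 10 were the most even, with 2 genes in which any of them stood apart by that much. Without wild-type replicate 2 of stage 10, 40 of the 121 genes fell below 1.5 at that stage, and without nup1 replicate 1 of stage 11, 21 did at stage 11.

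The first 2 of these patterns mostly touched different genes. Only 3 of the genes showed both, 50 showed the high wild-type replicate 3 without the high nup1 replicate 1, 23 showed the reverse, and 45 showed neither. Where wild-type replicate 3 of stage 10 stood apart, wild-type replicate 1 of stage 11 was the highest of its group in 44 of 53 genes, and in 23 of the other 68. That library was at least 2-fold above both others in 9 genes, 8 of them among the 53. What set these libraries apart was not tested. The total depth of each library is unknown, since FPKM keep no counts.

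**Figure D2:**
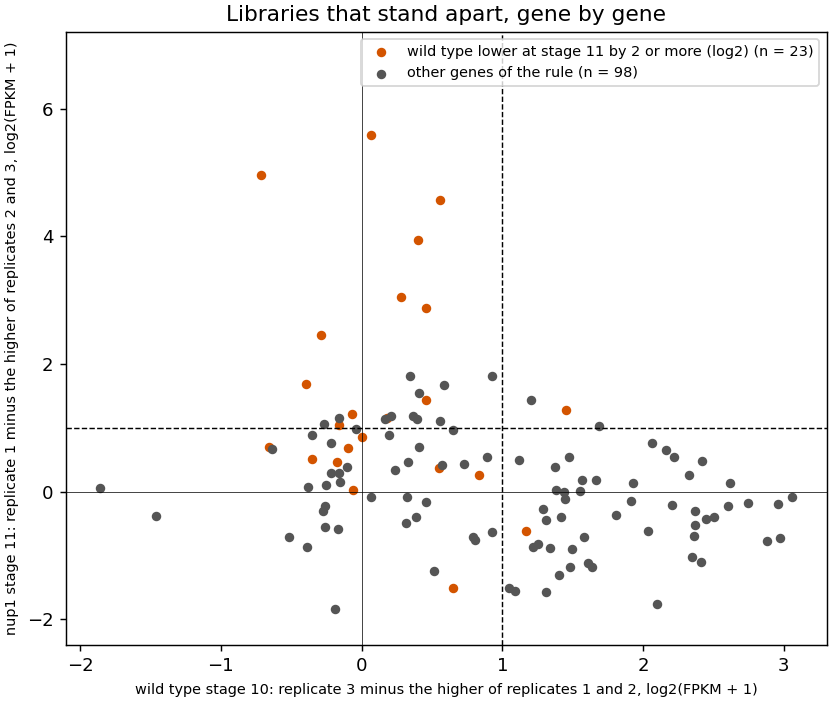
For each of the 121 genes, wild-type stage 10 replicate 3 minus the higher of the other 2 replicates (horizontal) against nup1 stage 11 replicate 1 minus the higher of the other 2 (vertical), in log2(FPKM + 1). Dashed lines mark 1, a 2-fold gap. Of the 121 genes, 3 lie beyond both lines, 50 beyond the vertical line alone and 23 beyond the horizontal line alone.

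Change between stages was read from levels in separate tables, and whether the tables were normalized together is not given in the sources used here. In nup1, levels at stage 11 were below those at stage 10 in 91 of the 121 genes (75.2%). The same held in 62.1% of the 404 other genes listed as higher at both stages and in 61.0% of all 1450. In wild type it held in 100 of the 121 (82.6%), against 72.0% and 48.8%. The rule uses the same libraries, so it can itself move these shares. The median change, stage 11 minus stage 10, was -0.62 in nup1 and -0.71 in wild type on the log2 scale. In the 404 other genes listed as higher at both stages it was -0.20 in nup1 and -0.33 in wild type, and over all 1450 it was -0.21 and 0.04. In wild type, 23 of the 121 genes were lower at stage 11 by 2 or more on the log2 scale (19.0%, against 7.18% of the 404 and 5.79% of the 1450). These limits were chosen after the values were seen.

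**Figure D3:**
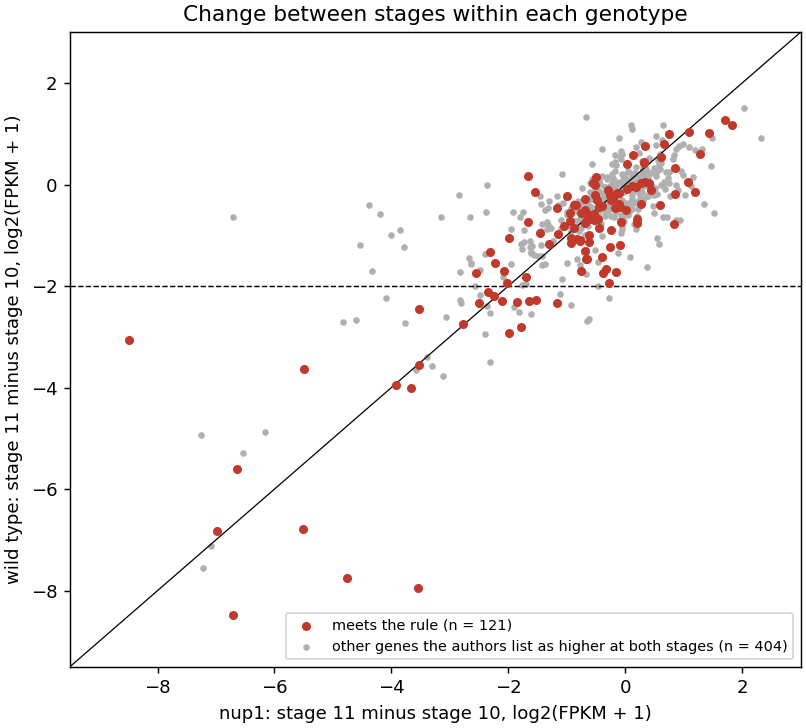
Change in mean log2(FPKM + 1), stage 11 minus stage 10, in nup1 (horizontal) and wild type (vertical), for the 121 genes and the 404 other genes the authors list as higher at both stages. The solid line marks equal change and the dashed line a wild-type change of -2, below which 23 of the 121 genes lie.

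The 23 genes that declined in wild type include the most abundant of the set at stage 10. Their median group means were 28.1 FPKM in nup1 and 1.28 FPKM in wild type at stage 11, and 354 FPKM in nup1 and 54.7 FPKM in wild type at stage 10. Between stages their median change was -3.52 in nup1 and -2.93 in wild type on the log2 scale.

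LOC_Os10g05930 had the largest difference of all at stage 11. Its nup1 libraries of stage 11 had 391, 115 and 120 FPKM, against 2.36, 0.777 and 0.945 FPKM in wild type (difference 6.29 ± 0.50, limma's SE, on the log2 scale). At stage 10 its nup1 libraries had 2529, 1492 and 2299 FPKM, against 1087, 190 and 827 FPKM in wild type (1.89 ± 0.60). The genotypes did not overlap at either stage, and wild type was abundant at stage 10.

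LOC_Os10g05910, its near neighbour by locus number, had the same shape. Nup1 libraries of stage 11 had 158, 12.1 and 28.1 FPKM, against 0.393, 0.454 and 0.443 FPKM in wild type (4.78 ± 0.81). At stage 10 nup1 had 1338, 730 and 1219 FPKM, against 654, 84.0 and 535 FPKM in wild type (1.77 ± 0.70). In both genes nup1 replicate 1 was the highest of its group at stage 11 and wild-type replicate 2 the lowest of its group at stage 10. Both meet the rule through that wild-type library, since without it the stage 10 difference was 0.84 for LOC_Os10g05910 and 1.11 for LOC_Os10g05930.

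LOC_Os09g35700 was the most abundant gene of the set at stage 10, with 4300, 5115 and 7022 FPKM in nup1, against 1643, 935 and 2170 FPKM in wild type (1.84 ± 0.39). At stage 11 nup1 had 436, 27.5 and 9.96 FPKM, against 6.24, 1.89 and 2.502 FPKM in wild type (3.62 ± 1.23). The stage 11 difference was 2.08 without nup1 replicate 1.

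LOC_Os02g45530 had the largest difference at stage 10. Its nup1 libraries had 1071, 1273 and 1351 FPKM, against 28.7, 0.501 and 17.1 FPKM in wild type (7.04 ± 0.92). At stage 11 nup1 replicate 1 had 33.9 FPKM, replicate 2 had 0.121 and replicate 3 was listed at 0, against 0.140, 0 and 0.231 FPKM in wild type (1.60 ± 1.26). Its place among the 121 rests on 1 library, since the stage 11 difference without nup1 replicate 1 was -0.08.

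LOC_Os04g48400 and LOC_Os05g10210 also had larger differences at stage 10. For LOC_Os04g48400, nup1 had 48.4, 4.96 and 1.25 FPKM at stage 11, against 0.349, 0.575 and 0.270 FPKM in wild type (2.65 ± 0.99, and 1.40, below the rule's threshold, without nup1 replicate 1). At stage 10 it had 563, 1127 and 1043 FPKM in nup1, against 122, 16.1 and 149 FPKM in wild type (3.68 ± 0.74). For LOC_Os05g10210, nup1 had 19.1, 5.52 and 6.42 FPKM at stage 11, against 1.04, 1.85 and 0.930 FPKM in wild type (2.14 ± 0.44). The groups of both genes were separate at both stages. At stage 10 LOC_Os05g10210 had 536, 301 and 558 FPKM in nup1, against 38.1, 9.26 and 52.9 FPKM in wild type (4.01 ± 0.57).

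PIP2-6 and LOC_Os02g41904 were also among the declining genes. PIP2-6 had 74.7, 73.3 and 48.8 FPKM in nup1 at stage 11, against 24.2, 22.6 and 19.4 FPKM in wild type. Its stage 10 values were 399, 192 and 471 FPKM in nup1, against 146, 47.4 and 140 FPKM in wild type, a difference of 1.1996 without wild-type replicate 2. LOC_Os02g41904 had 149, 81.7 and 43.4 FPKM in nup1 at stage 11, against 11.6, 13.1 and 14.01 FPKM in wild type (2.56 ± 0.40), and at stage 10 it had 331, 329 and 404 FPKM in nup1, against 82.3, 44.8 and 82.4 FPKM in wild type (2.37 ± 0.30). Neither gene overlapped between genotypes at either stage.

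Among the 23 declining genes, nup1 replicate 1 was the highest nup1 library of stage 11 in 21 and stood apart by 2-fold or more in 13. It stood apart in 13 of the other 98. Wild-type replicate 2 was the lowest wild-type library of stage 10 in 21 of the 23, and at least 2-fold below both others in 13. Without wild-type replicate 2, 12 of the 23 fell below 1.5 at stage 10. The median stage 10 difference over the 23 was then 1.39, against 1.87 with it. Over the 23 genes the median level at stage 11 was 56.2 FPKM in nup1 replicate 1, 7.16 in replicate 2 and 9.96 in replicate 3. Without nup1 replicate 1, 15 of the 23 kept a stage 11 difference of 1.5 or more, and their median difference was 1.78, against 2.32 with it. The part of that library in these differences beyond this comparison was not tested.

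**Figure D4:**
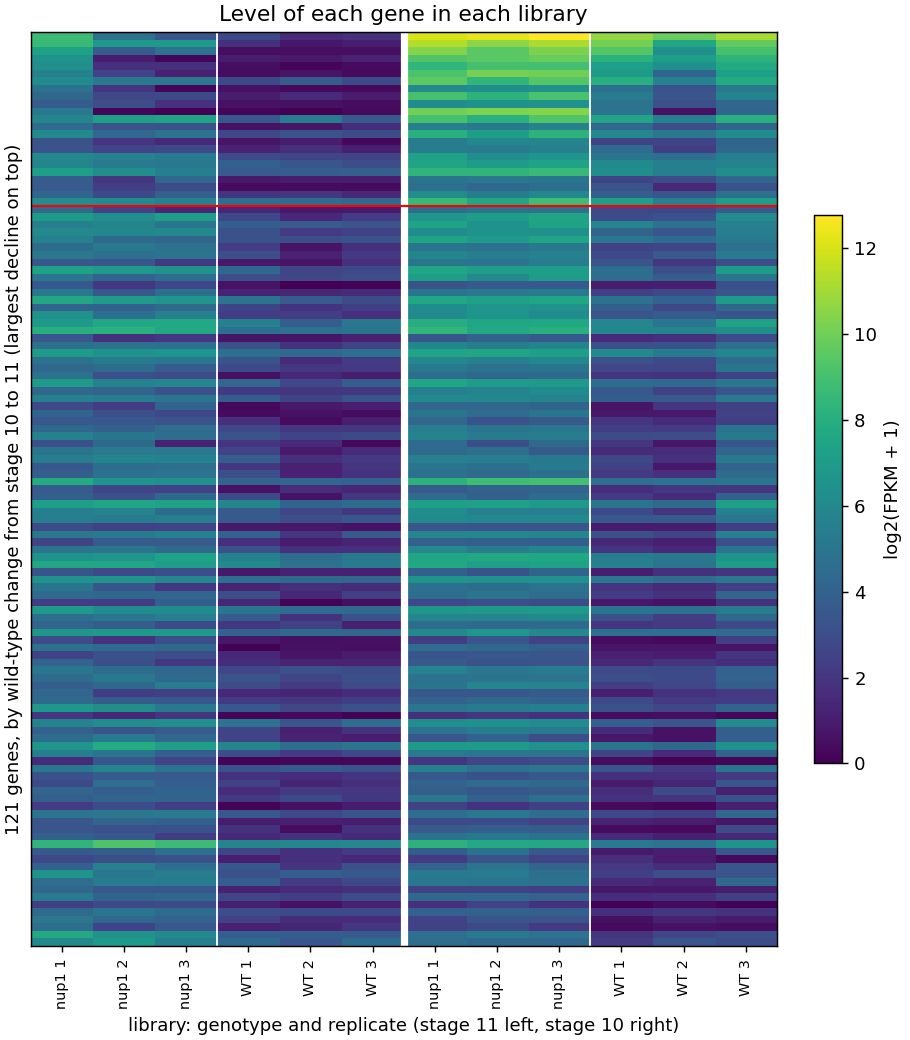
Log2(FPKM + 1) of the 121 genes (rows) in the 12 libraries (columns), nup1 left of wild type within each stage. Rows run from the largest wild-type decline between stages on top, and the red line closes off the 23 genes that declined by 2 or more. The top rows are bright in stage 10 and in nup1 replicate 1 of stage 11, and the third wild-type column of stage 10 is brighter than its neighbours in many lower rows.

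The 53 genes in which wild-type replicate 3 of stage 10 stood apart had a different course. Their median group means were 27.7 FPKM in nup1 and 4.51 FPKM in wild type at stage 11, and 35.0 FPKM in nup1 and 9.60 FPKM in wild type at stage 10. The 3 wild-type libraries of stage 10 had medians over these genes of 5.08, 3.44 and 20.6 FPKM. At stage 10 the genotypes were separate in 40 of the 53, and 30 passed with limma, while 52 were separate and 48 passed at stage 11. Over all listed genes, 52.8% were separate with nup1 higher and 39.8% of fitted genes passed as higher at stage 10, and 36.8% and 26.3% at stage 11. Their median stage 10 difference was 1.97. Leaving out wild-type replicate 3, by construction their highest wild-type library, gave 2.65. Without wild-type replicate 2 it was 1.57, and 22 of the 53 fell below 1.5.

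JAZ12 (LOC_Os10g25290) is a repressor of jasmonate signalling that is degraded when the hormone is perceived. It had 197, 196 and 140 FPKM in nup1 at stage 11, against 67.5, 26.5 and 36.2 FPKM in wild type (2.10 ± 0.34). The stage 10 libraries had 213, 145 and 168 FPKM in nup1, against 45.8, 30.4 and 136 FPKM in wild type (1.57 ± 0.49). Wild-type replicate 3 came close to the lowest nup1 library. Without 1 library the stage 10 difference ran from 1.12, without wild-type replicate 2, to 2.18, without wild-type replicate 3, and it was also below 1.5 without nup1 replicate 1 (1.42) or wild-type replicate 1 (1.41).

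DREB1F (LOC_Os01g73770), a transcription factor of the DREB1/CBF group known for its part in cold, drought and salt responses, had 29.2, 31.0 and 20.5 FPKM in nup1 at stage 11, against 7.94, 2.44 and 2.34 FPKM in wild type (2.55 ± 0.40). At stage 10 it had 63.1, 40.4 and 55.6 FPKM in nup1, against 2.73, 1.82 and 30.1 FPKM in wild type (2.95 ± 0.77). The genotypes were separate at both stages, and the stage 10 difference was 2.30 without wild-type replicate 2 and 4.03 without wild-type replicate 3.

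ACS2 (LOC_Os04g48850) makes the precursor of ethylene. It was low throughout, with 6.49, 2.54 and 7.28 FPKM in nup1 at stage 11, against 0.776, 0.414 and 0.464 FPKM in wild type (1.97 ± 0.34). Its stage 10 values were 3.66, 9.67 and 4.46 FPKM in nup1, against 0.322, 0.249 and 3.98 FPKM in wild type (1.68 ± 0.54), so that wild-type replicate 3 lay above the lowest nup1 library. Its stage 10 difference ran from 1.32 without nup1 replicate 2 to 2.33 without wild-type replicate 3. PP2C49 (LOC_Os05g38290), a protein phosphatase of class 2C, had 47.6, 30.04 and 22.4 FPKM in nup1 at stage 11, against 8.65, 4.90 and 6.07 FPKM in wild type (2.15 ± 0.31). The stage 10 libraries had 52.2, 38.9 and 40.7 FPKM in nup1, against 6.88, 7.16 and 35.5 FPKM in wild type (1.74 ± 0.54), a difference of 1.37 without wild-type replicate 1 and 2.47 without replicate 3.

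The largest difference at stage 11 among these 53 was that of LOC_Os03g61500, with 122.7, 79.8 and 141 FPKM in nup1, against 5.82, 1.74 and 3.89 FPKM in wild type (4.64 ± 0.37). At stage 10 it had 100, 142 and 175 FPKM in nup1, against 6.47, 8.33 and 71.7 FPKM in wild type (2.99 ± 0.75). LOC_Os06g44010 was alike, with 163, 116 and 89.5 FPKM in nup1 at stage 11, against 18.3, 5.26 and 6.05 FPKM in wild type (3.67 ± 0.44). Both genes were cleanly separated at stage 11. At stage 10 LOC_Os06g44010 had 179, 137 and 139 FPKM in nup1, against 23.6, 7.35 and 130 FPKM in wild type (2.34 ± 0.81). That difference was 1.41 without wild-type replicate 2, below the rule's threshold, and 3.40 without replicate 3.

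Among the more abundant of the 53, LOC_Os01g04050 had 330, 612 and 436 FPKM in nup1 at stage 11, against 54.5, 58.3 and 64.6 FPKM in wild type (2.89 ± 0.23). Its stage 10 values were 309, 225 and 213 FPKM in nup1, against 37.5, 28.0 and 96.5 FPKM in wild type (2.37 ± 0.43). LOC_Os08g37660 had differences of 2.55 ± 0.46 at stage 11 and 1.59 ± 0.53 at stage 10 (1.04 without wild-type replicate 2). The differences of LOC_Os05g48680 were 2.57 ± 0.39 and 2.49 ± 0.66. Those of LOC_Os01g20206 were 1.76 ± 0.39 (1.39 without wild-type replicate 2 of stage 11) and 3.15 ± 0.69. All 3 of these and LOC_Os01g04050 were separate between genotypes at both stages.

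The remaining 47 genes had neither a strong wild-type decline nor a high wild-type replicate 3. Since wild-type replicate 3 gave every overlap at stage 10, leaving out the genes in which it is high favours separation in these 47. At stage 11, 46 of them were separate and 43 passed with limma (36.8% of listed and 26.3% of fitted genes over the whole table). At stage 10 all 47 were separate and passed (52.8% and 39.8%). Without wild-type replicate 2 of stage 10, 6 of the 47 fell below 1.5. Without wild-type replicate 3 of stage 10, 44 of the 47 kept a stage 10 difference of 1.5 or more. Only 36 of the 47 kept that difference at stage 11 without nup1 replicate 1 of stage 11. Their median group means were 14.5 FPKM in nup1 and 2.88 FPKM in wild type at stage 11, and 20.5 FPKM in nup1 and 3.40 FPKM in wild type at stage 10.

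LOC_Os07g48550 was under 1 FPKM in every wild-type library. It had 26.0, 21.2 and 18.6 FPKM in nup1 at stage 11, against 0.0445, 0.490 and 0.444 FPKM in wild type (4.12 ± 0.23). The stage 10 libraries had 22.7, 17.88 and 13.98 FPKM in nup1, against 0.721, 0.789 and 0.605 FPKM in wild type (3.47 ± 0.25). The lowest nup1 library was far above the highest wild-type library at each stage.

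LOC_Os10g31330 had 229, 103 and 85.7 FPKM in nup1 at stage 11, against 15.6, 17.86 and 15.7 FPKM in wild type (2.88 ± 0.35). At stage 10 it had 303, 446 and 495 FPKM in nup1, against 25.0, 27.8 and 31.3 FPKM in wild type (3.82 ± 0.27). LOC_Os01g03340 had 255, 287 and 203 FPKM in nup1 at stage 11, against 24.8, 27.0 and 30.6 FPKM in wild type (3.12 ± 0.18). In both genes every nup1 library of stage 11 was well above every wild-type library. At stage 10 LOC_Os01g03340 had 341, 208 and 255 FPKM in nup1, against 56.3, 57.4 and 79.4 FPKM in wild type (2.03 ± 0.28).

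LOC_Os07g32710 had 91.0, 24.5 and 48.5 FPKM in nup1 at stage 11, against 3.91, 3.997 and 2.39 FPKM in wild type (3.48 ± 0.45), and at stage 10 a difference of 2.86 ± 0.26. LOC_Os03g10210 had differences of 2.62 ± 0.46 and 2.49 ± 0.29. LOC_Os02g52730, with the lowest nup1 means of the set, had 3.07, 1.66 and 2.77 FPKM in nup1 at stage 11, against 0.159, 0.233 and 0.0703 FPKM in wild type, and at stage 10 it had 2.43, 3.02 and 2.69 FPKM in nup1, against 0.357, 0.386 and 0.166 FPKM in wild type. Its differences on this scale are held down by the pseudocount of 1 FPKM.

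Cht1 (LOC_Os06g51060), a chitinase, an enzyme that breaks down fungal cell walls, differed more at stage 10 than at stage 11. It had 13.997, 10.5 and 3.87 FPKM in nup1 at stage 11, against 1.67, 2.59 and 1.73 FPKM in wild type (1.67 ± 0.41). Its stage 10 values were 26.7, 34.6 and 26.2 FPKM in nup1, against 2.01, 1.15 and 1.80 FPKM in wild type (3.51 ± 0.25). The genotypes were separate at both stages, with nup1 replicate 3 the lowest at stage 11, and without nup1 replicate 1 the stage 11 difference was 1.33.

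HOX22 (LOC_Os04g45810), a homeodomain-leucine zipper transcription factor, had 17.69, 4.20 and 4.32 FPKM in nup1 at stage 11, against 1.76, 1.498 and 2.11 FPKM in wild type (1.53 ± 0.49). The stage 10 libraries had 10.5, 9.74 and 11.3 FPKM in nup1, against 1.14, 2.48 and 3.41 FPKM in wild type (1.84 ± 0.30). Its stage 11 difference was 0.92 without nup1 replicate 1. LOC_Os09g27750 had 31.9, 15.9 and 22.9 FPKM in nup1 at stage 11, against 7.22, 5.62 and 7.09 FPKM in wild type (1.64 ± 0.27). Its stage 11 difference was 1.40 without nup1 replicate 1, and its stage 10 difference was 2.32 ± 0.37.

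**Figure D5:**
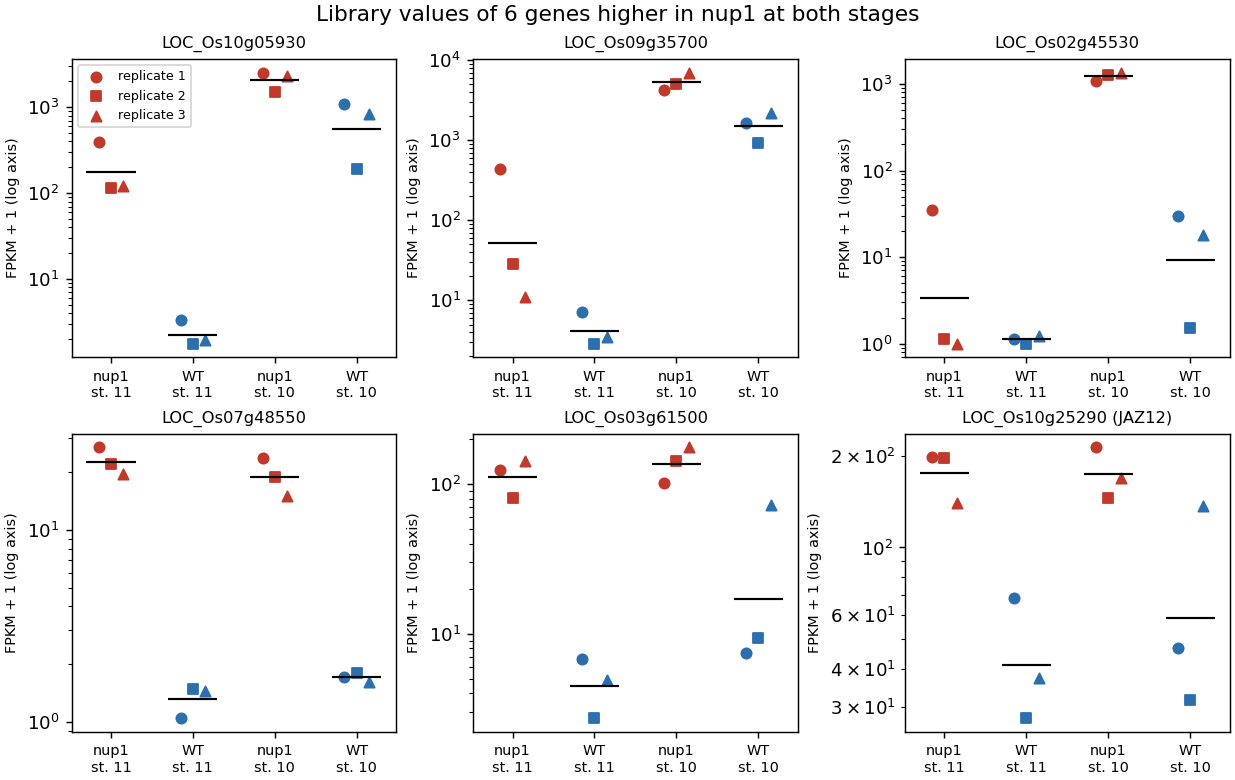
FPKM + 1 on a log axis in each library for 6 of the genes, with nup1 left of wild type in each stage, marker shape for the replicate and a bar at the mean of the log values. LOC_Os10g05930, LOC_Os09g35700 and LOC_Os02g45530 drop between stages with nup1 replicate 1 on top at stage 11, LOC_Os07g48550 is steady, and LOC_Os03g61500 and JAZ12 show the high wild-type replicate 3 of stage 10.

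At stage 11 the genotypes overlapped in 5 genes, LOC_Os01g02190, LOC_Os02g45530, LOC_Os08g34330, LOC_Os09g37470 and LOC_Os11g31060, and nup1 replicate 1 was the highest nup1 library in all of them but LOC_Os09g37470. LOC_Os01g02190 had 92.3, 0.932 and 0.176 FPKM in nup1, against 1.06, 0.823 and 1.36 FPKM in wild type, and a stage 11 difference of -0.46 without nup1 replicate 1. At stage 10 the genotypes overlapped in 14 genes, and in all 14 it was wild-type replicate 3 that reached the lowest nup1 library.

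Some of the genes lay beside each other. There were 6 pairs of adjacent genes of the set whose locus numbers differ by 30 or less, which hold 12 genes (9.92%), against 20.4% of the 1450 genes listed at both stages. A longer listing has more close pairs by its density alone. Besides the chromosome 10 pair above, the pair LOC_Os03g61490 and LOC_Os03g61500 had stage 11 differences of 3.24 and 4.64. Chromosome 9 held the pairs LOC_Os09g37394 with LOC_Os09g37400 and LOC_Os09g37470 with LOC_Os09g37480, whose differences lay between 1.64 and 2.34 at both stages. By chromosome in the locus names, 27 of the genes (22.3%) were on chromosome 1, against 15.3% of all genes listed at both stages. Chromosome 5 held 16 (13.2%, against 8.76%) and chromosome 8 held 14 (11.6%, against 5.79%). Shares were lower on chromosome 2 (5.79%, against 12%) and chromosome 3 (8.26%, against 11.5%). They were also lower on chromosome 6 (5.79%, against 8.28%) and chromosome 12 (1.65%, against 5.38%), and none of these shares was tested.

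The lists of stress hormone, defence and tapetum genes put few of the set in context. Of 22 jasmonate genes, 9 were listed at stage 11, 7 higher and 2 lower, and all 9 passed in those directions, where 72.3% of all fitted genes passed in either. At stage 10, 4 were listed, of which 2 passed as higher and 1 as lower, against 72.9% of all fitted genes. JAZ12 was the 1 jasmonate gene among the 121, and it did not pass at stage 10 (limma's adjusted p 0.013). AOS1, a jasmonate synthesis enzyme, had differences of 1.23 at stage 11 and 1.33 at stage 10, and JAR1, which conjugates jasmonate to isoleucine, had -1.51 and -1.65. The median difference of listed jasmonate genes was 1.25 at stage 11 and 1.21 at stage 10.

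Of 15 defence genes, 8 were listed at stage 11 and 7 at stage 10, all higher in nup1, and 5 and 2 passed, where 26.3% and 39.8% of all fitted genes passed as higher. Their median differences were 1.48 and 1.82, and Cht1 and LOC_Os06g44010 were among the 121. Of these, LOC_Os06g44010 did not pass at stage 10 (limma's adjusted p 0.020). Of 8 senescence and ethylene genes, 4 and 5 were listed, all higher, 4 and 2 passed, and ACS2 and LOC_Os09g27750 were among the 121. ACS2 did not pass at stage 10 (limma's adjusted p 0.014). Summed FPKM of the listed defence genes ran from 516 to 715 in nup1 and 114 to 265 in wild type at stage 11, and from 736 to 762 in nup1 and 119 to 427 in wild type at stage 10.

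The 121 genes held 0 of 14 pollen wall genes, of which 6 were listed at stage 11, all lower, and 13 at stage 10, 9 higher and 4 lower. They held 0 of 11 genes of tapetal death and its regulators, with 6 listed at stage 11, 2 higher and 4 lower, and 5 at stage 10, 4 higher and 1 lower. They held 0 of 9 respiratory burst oxidases (2 and 1 listed, all higher) and 0 of 9 heat shock genes (6 higher at stage 11 and 0 listed at stage 10). Of 11 diterpenoid phytoalexin genes 0 were listed at either stage. None of the 121 was on the lists for other floral organs, stamen identity, photosynthesis or housekeeping. In those lists 1 of 7, 1 of 5, 3 of 7 and 1 of 4 genes were listed at stage 11, all lower. At stage 10 only photosynthesis genes were listed, 1 higher and 2 lower.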

How the data were processed

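Rice anther RNA was sequenced as pairs of 150-base reads. Per the series' design text, reads were mapped with HISAT2 to MSU version 7 of the rice genome and FPKM were computed with Cufflinks, which also called changed genes (FDR below 0.01, fold above 2). No tool version is named there. The authors deposited FPKM per library for called genes only, 1 table per stage, so the depth is unknown. Values run down to 1.39e-315 FPKM, and a value at or near 0 can be a failed estimate.

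FPKM were compared as log2(FPKM + 1), which understates the change of low genes. The rule's threshold is 1.5. It leaves 1 gene out, which is not reported here. Each table was fitted with limma 3.58.1 in R 4.3.3 (mean-variance trend, no covariates) for genes averaging at least 1 FPKM. Passing meant an adjusted p (Benjamini-Hochberg) below 0.01 and a difference above 1. The fit was tested on simulated data with independent noise in each gene and a small part of the genes changed. The data here differ in both respects, so that test checks the code alone. The labels call the replicates biological without naming plants, so p-values measure only the spread between these samples.

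The genes, the 12 lists and the limits were chosen with earlier results of these data known. Of 124 list loci, the reference table places the symbol of 84 on the chromosome of the locus, lacks that of 38, and places 2 elsewhere, which were left out. Named genes were the 10 with the largest smaller difference at a nup1 mean of 10 FPKM or more, the 5 with the highest nup1 mean taken as the smaller of the 2 stages, the 4 with the largest excess at each stage, 3 on each side of the threshold, list members and runs of 3 neighbours, of which there were 0. A family rule was not applied for want of descriptions. Further genes were chosen after their values were seen.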

Additional observations from a re-analysis of the deposited data

How the results depend on the processing

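The number of genes meeting the rule depended on its scale and threshold. It was 203 with a pseudocount of 0.1 FPKM (120 of them among the 121) and 42 with 5 FPKM, and 35 with a threshold of 2 and 338 with a threshold of 1. It was 101 (95 shared) by the log2 ratio of mean FPKM + 1, and 103 when every nup1 library had to exceed every wild-type library. Centring each library on the median of its table moved every difference by 0.45 at stage 11 and -0.20 at stage 10 and gave 122 genes, 96 of them shared. Leaving out 1 library gave 83 to 157 genes, the lowest without wild-type replicate 2 of stage 10 (81 shared) and the highest without wild-type replicate 3 of stage 10 (117 shared). Without that library and nup1 replicate 1 of stage 11, a choice made after seeing the data, it was 141 (97 shared). The stage 11 difference of LOC_Os02g45530 ran from -0.081 without nup1 replicate 1 to 2.48 without nup1 replicate 3. With limma, 3610 genes passed at stage 11 and 2449 at stage 10. The counts were 2168 and 1372 with a pseudocount of 5 FPKM, and 2816 to 3593 and 1674 to 2587 without 1 library. Median centring gave 1882 higher and 1246 lower at stage 11, against 1315 and 2295, and 968 higher and 1321 lower at stage 10, against 1338 and 1111. The rule's threshold is larger than that shift at either stage, so centring could not turn the sign of any of the 121 genes. The differences of AOS1, JAR1 and the genes just outside the threshold also exceed the shift in size. Unchanged signs under centring are therefore no test of these genes. The median difference of the named genes ran from 2.17 to 2.78 at stage 11 and 2.02 to 2.76 at stage 10 without 1 library. With the replicate number as a block 3472 genes passed at stage 11 and 2499 at stage 10. Same-numbered libraries of the genotypes had correlations of deviations of 0.04, 0.25 and 0.18 at stage 10 and -0.09, -0.23 and 0.08 at stage 11. Between libraries of different number the correlations ran from -0.27 to 0.21 at stage 10 and from -0.13 to 0.24 at stage 11. With 3 libraries per group, whether the numbers pair the samples cannot be told from these values.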
